A study of Mus musculus with 2 samples.

Results

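Fibro-adipogenic progenitor (FAP) nuclei were examined in single-nucleus RNA-Seq (snRNA-Seq) of the gastrocnemius/plantaris (GP) muscle of the mouse calf. They numbered 550 of the 7741 nuclei that passed the filters, 412 in the control library (Ctrl) and 138 in the library of mice lacking Net39 in muscle (cKO). A nucleus was chosen by its own measured counts of unique molecular identifiers (UMIs, each standing for 1 captured RNA molecule). It needed at least 4 UMIs from at least 2 of 12 rule genes (Pdgfra, Dcn, Col1a1, Col1a2, Col3a1, Abca8a, Bmper, Tnxb, Ebf2, Mfap5, Lum and Pi16) and fewer UMIs than that over 12 competing genes of endothelial cells, pericytes, smooth muscle, leukocytes and the myotendinous junction. Levels of these 24 genes in the members are therefore a description of the choice and not a result. The filters kept nuclei with at least 500 UMIs and at most 10% of UMIs from mitochondrial genes.

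Both groups were Net39 fl/fl mice, 5 months old and 3 months after tamoxifen. The labels give their background as B6C3F1, while the study's methods describe founders from B6C3F1 zygotes that were bred to C57BL/6N and a line later crossed with the Cre mice. Net39 is a transmembrane protein of the muscle nuclear envelope whose gene has the symbol Plpp7, and loxP sites flank its first exon. cKO mice also carried HSA-CreERT2, a tamoxifen-dependent Cre recombinase under the human skeletal actin promoter, whereas Ctrl mice were Cre-. That promoter is active in skeletal muscle fibres, so FAPs are not among the cells that it targets. By the labels' protocol 3 GP muscles of a group were mixed before nuclei were isolated, whereas the sample titles speak of mouse 1, so the number of animals is uncertain. Each group has 1 library, and no nucleus can be traced to an animal. There were thus no replicates, no test between the groups was possible, and every interval given is a 95% interval that covers counting error only.

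FAPs are mesenchymal cells that lie in the connective tissue between muscle fibres and express the PDGF receptor Pdgfra. They make much of the collagen and proteoglycan matrix of muscle, secrete factors that act on satellite cells, and are the source of fibrous tissue and of fat when muscle degenerates. Studies of fibroblasts in many tissues describe a Pi16- and Dpp4-expressing pool in the outer connective tissue and a Lum-expressing pool that is closer to the parenchyma.

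The Ctrl library held 10410316 UMIs in 3863 deposited nuclei and the cKO library 8446070 UMIs in 3994. FAP nuclei had a median of 1934 UMIs in Ctrl and 1675 in cKO, and together gave 1314542 and 313551 UMIs. The libraries shared 5 barcodes, 1 of which belonged to a FAP nucleus. In the nuclei outside the FAP set the 12 rule genes together made 92.0 CPM in Ctrl against 46.8 in cKO. That set includes nuclei just under the rule, such as 60 in Ctrl and 32 in cKO with 3 rule UMIs. How much of the value is free RNA was not tested. CPM is a gene's UMIs for each 1000000 UMIs that the nuclei in question held together.

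FAP nuclei fell into 2 ranges by their content of muscle fibre RNA, measured as the share of UMIs from 12 fast fibre genes (Ttn, Neb, Myh4 and others). Of the Ctrl members, 211 had a share under 2%, with a median of 0.412%, and the other 201 had a median of 4.75%. In cKO, 88 members were under 2% with a median of 0.198%, and 50 were above it with a median of 4.14%. The fibre-rich members were close to the nuclei outside the set, whose medians were 6.24% in Ctrl and 5.76% in cKO. The fibre-poor and the fibre-rich members also differed in depth.

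Fibre-poor members had median depths of 1218 UMIs in Ctrl and 1236 in cKO, against 3227 and 2680.5 in the fibre-rich members. Of the fibre-rich members, 41.8% in Ctrl and 38% in cKO were among the 8% of nuclei with the highest doublet score, against 0.948% and 1.14% of the fibre-poor members. Whether fibre-rich members are doublets was not tested further. They held 74.2% of all UMIs of FAP nuclei in Ctrl and 58.3% in cKO, so a sum over all members is diluted by fibre RNA to an unequal degree. Values below are for fibre-poor members where not stated otherwise, and those of all members are added for some lists. The limit of 2% was chosen after the distribution had been seen.

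**Figure D1:**
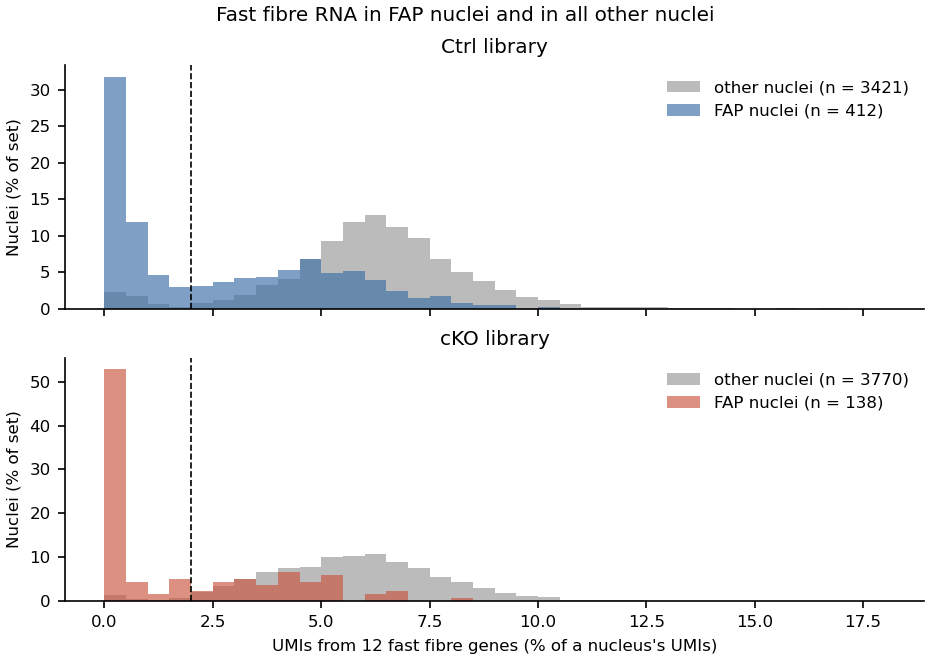
Histograms of the share of each nucleus's UMIs that came from 12 fast fibre genes (x axis, percent) in FAP nuclei (coloured) and all other nuclei (grey) of each library, as a percentage of each set (y axis). The dashed line marks 2%, and FAP nuclei form a peak near 0 and a broad range that overlaps the other nuclei, with 211 Ctrl and 88 cKO nuclei to the left of the line.

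Levels of the rule genes describe the choice of nuclei and cannot check the label. In fibre-poor members all 12 rule genes were found in both libraries, and summed to 10435 CPM in Ctrl against 7965 in cKO. Col3a1, which encodes the chain of type III collagen, was the highest in Ctrl with 2338 CPM (2178 to 2507). Abca8a, a lipid transporter gene, was the highest in cKO with 1599 CPM (1390 to 1831). Pdgfra had a UMI in 39.8% of fibre-poor Ctrl members and 19.3% of fibre-poor cKO members, against 0.731% and 0.239% of the nuclei outside the set, which were deeper with medians of 2129 and 1665 UMIs. Dcn, the proteoglycan decorin, had a UMI in 65.4% and 60.2% of fibre-poor members, against 2.60% and 1.14% of other nuclei.

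Genes that the rule did not use also set these nuclei apart, although any gene of nuclei chosen in this way can follow the rule genes. Over all members, Vcan, which encodes the large proteoglycan versican, stood at 289 CPM in Ctrl against 281 in cKO, 43.6 and 61.9 times its level in other nuclei. Has2, a hyaluronan synthase gene, was 58.5 and 71.7 times the other nuclei, and Gpc3, a cell surface proteoglycan gene, 45.1 and 54.8 times. Gfpt2, an enzyme gene of hexosamine synthesis, was 55.7 and 97.4 times the other nuclei. The remaining genes with the highest ratio in both libraries were Ms4a4d, Tspan11, Ifi205, Postn, Gpm6b and Lvrn.

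**Figure D2:**
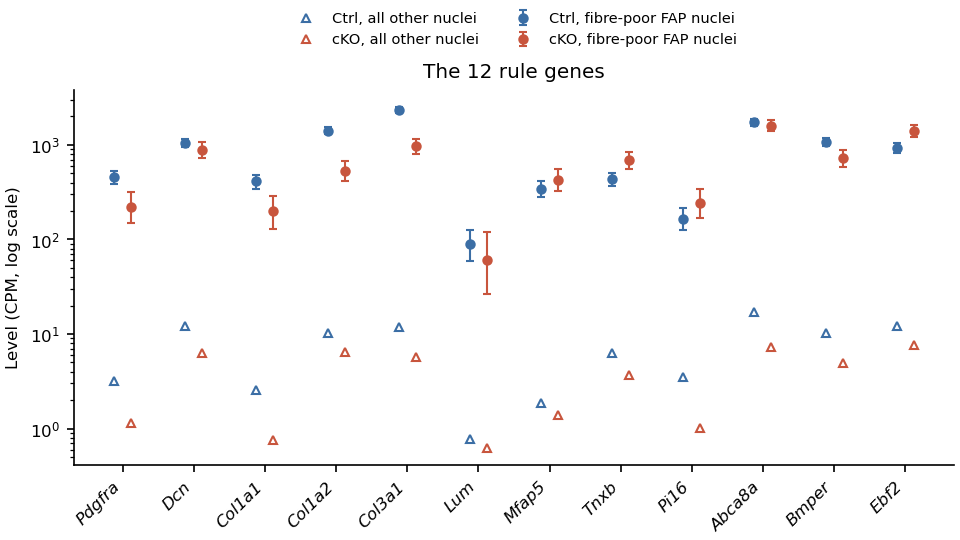
Level of the 12 rule genes (y axis, CPM on a log scale) in fibre-poor FAP nuclei (circles, with exact Poisson 95% intervals) and in all other nuclei (open triangles) of the Ctrl and the cKO library. All 12 genes lie above their level in other nuclei in both libraries, as the rule demands, and Col1a1, Col1a2, Col3a1 and Pdgfra are lower in cKO.

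Markers of other cell types were read in the fibre-poor members. The 6 endothelial genes, all of them competing genes of the rule, summed to 59.0 CPM in Ctrl against 7.65 in cKO, with 1 and 5 of them at 0 UMIs. The 6 macrophage and leukocyte genes summed to 177 CPM in Ctrl against 7.65 in cKO, with none and 5 of them at 0 UMIs. In Ctrl, 23 UMIs of Mrc1 and 21 of F13a1, both macrophage genes, made most of that sum, and the Mrc1 UMIs lay in 5 nuclei. The 6 adipocyte genes summed to 50.2 CPM in Ctrl and were all at 0 UMIs in cKO. The 6 tenocyte genes summed to 517 CPM in Ctrl, from 175 UMIs, against 161 in cKO, a ratio of 0.311 (0.188 to 0.490), with 1 and 3 of them at 0 UMIs. The sums were closer for smooth muscle and pericyte genes (88.6 against 99.5 CPM), Schwann cell genes (151 against 161 CPM) and satellite cell genes (50.2 against 45.9 CPM), and all 3 intervals of the ratio held 1. The smooth muscle and pericyte genes are competing genes as well, as is Ptprc of the leukocyte genes. Sums of the endothelial and of the smooth muscle and pericyte genes thus describe the choice of nuclei and are not a result. Mitochondrial genes took 2.21% of UMIs in fibre-poor Ctrl members and 4.31% in fibre-poor cKO members. The part of these differences in the results was not tested, apart from the alternatives given with them.

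At the edge of the rule, 60 Ctrl and 32 cKO nuclei had 3 UMIs of the rule genes and stayed out. Of the nuclei with exactly 4, 57 of 64 in Ctrl and 23 of 24 in cKO were members. The competing genes kept out 4 Ctrl nuclei and 1 cKO nucleus, and 8 and 2 nuclei were kept out because all their rule UMIs came from 1 gene. The highest count of rule UMIs in a member was 200 in Ctrl and 44 in cKO.

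The share of FAP nuclei was lower in the cKO library. FAP nuclei were 412 of 3833 nuclei in Ctrl, or 10.7% (9.79 to 11.8), and 138 of 3908 in cKO, or 3.53% (2.97 to 4.16). cKO thus lay −7.22 points (−8.38 to −6.07) from Ctrl. A rule on raw UMIs finds more nuclei in a deeper library, so each nucleus was thinned at random to 500 UMIs. The share was then 4.44% (3.81 to 5.14) in Ctrl and 1.59% (1.22 to 2.03) in cKO. Counting only fibre-poor members gave 5.50% (4.80 to 6.27) and 2.25% (1.81 to 2.77). The intervals of the libraries did not overlap under any of these counts.

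Nuclei of other cells outside the fibres were found with the same kind of rule. Endothelial nuclei numbered 57 in Ctrl and 19 in cKO, a difference of −1.001 points (−1.48 to −0.551) of all nuclei. Smooth muscle and pericyte nuclei numbered 15 and 7, a difference of −0.212 points (−0.487 to 0.0439), and immune nuclei 18 and 14, a difference of −0.111 points (−0.428 to 0.197), and both of these intervals held 0. There were 7.23 FAP nuclei for each endothelial nucleus in Ctrl and 7.26 in cKO. Of all nuclei that fell into these 4 classes, FAPs made 82.1% (78.4 to 85.3) in Ctrl and 77.5% (70.7 to 83.4) in cKO, a difference of −4.54 points (−12.1 to 2.39). The lower share of FAP nuclei was thus seen against all nuclei, most of them from fibres, and was within counting error against the other nuclei from outside the fibres. Nuclei were sorted before loading to remove debris, and shares of nuclei cannot be read as numbers of cells in the muscle.

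**Figure D3:**
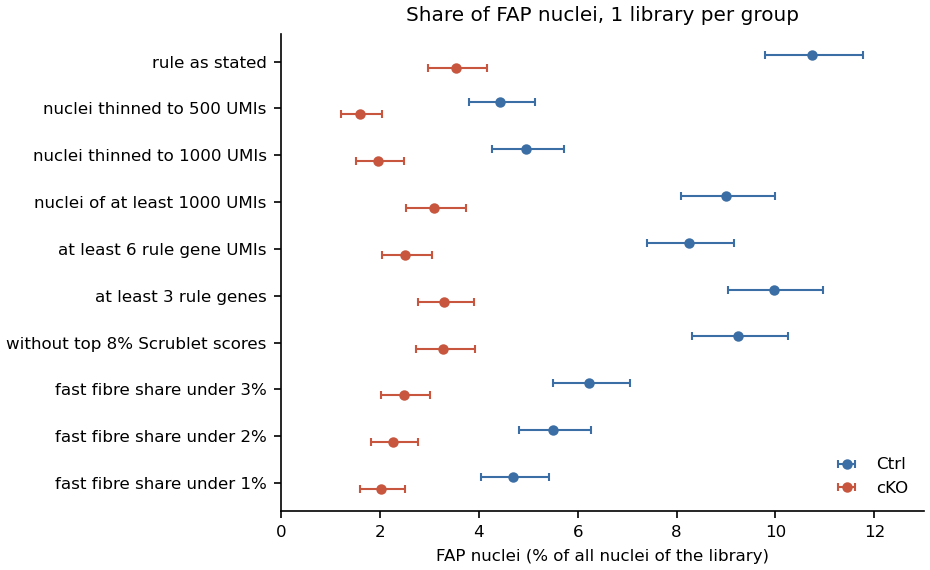
FAP nuclei as a percentage of all nuclei (x axis) in Ctrl and cKO under the rule as stated and 9 other ways of counting (rows). Points are the shares of 1 library each and bars exact binomial 95% intervals, and cKO lies to the left of Ctrl in every row.

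The 2 pools of fibroblasts were addressed with panels of 8 genes each, since Pi16 and Lum alone were too sparse. Among Ctrl members, 49 had a UMI of Pi16 only, 29 of Lum only, 3 of both and 331 of neither. In cKO these numbers were 21, 6, 1 and 110. The Pi16 panel held Pi16, Dpp4, Sema3c, Cd55, Pcsk6, Fbn1, Ugdh and Cd248, and the Lum panel Lum, Smoc2, Cxcl14, Hsd11b1, Col15a1, Podn, Apod and Mme. A nucleus with more UMIs of the first panel was called Pi16-side and one with more of the second Lum-side. A side is a range of a score and not a cell type: 150 of the Ctrl and 48 of the cKO members lay within 1 UMI of the line.

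The sides had like shares in both libraries when all members were counted at full depth with sides as defined. Pi16-side nuclei were 62.4% (57.5 to 67.1) of members in Ctrl and 62.3% (53.7 to 70.4) in cKO. Lum-side nuclei were 24.0% (19.98 to 28.5) and 21.0% (14.5 to 28.8), a difference of −3.01 points (−10.9 to 5.73). Among fibre-poor members, Lum-side nuclei were 27.5% (21.6 to 34.0) in Ctrl and 17.0% (9.87 to 26.6) in cKO, a difference of −10.4 points (−20.2 to 0.748). Both intervals held 0, but without the matrix-high nuclei described further on the difference in fibre-poor members was −11.7 points (−22.0 to −0.101), which excluded 0. Over all members the Lum-side difference turned to 0.376 points (−7.56 to 9.18) when thinned to 500 UMIs. It was 2.22 points (−7.10 to 12.6) among nuclei of at least 1000 UMIs. The Pi16-side difference was 8.75 points (−1.09 to 18.6) when thinned to 500 UMIs and 8.47 points (−1.54 to 18.2) with a margin of 2 UMIs. Fbn1 carried most of the Pi16 panel, with 660 of its UMIs in fibre-poor Pi16-side nuclei of Ctrl.

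Genes outside the panels and the rule differed between the sides within each library. In fibre-poor members, 44 of 3847 genes (1.14%) were at least 2-fold higher on the Pi16 side in both libraries, and 43 (1.12%) on the Lum side. Over all members these were 29 of 7198 genes (0.403%) on the Pi16 side and 88 (1.22%) on the Lum side. Genes can differ here because they share nuclei with the panel genes that set the sides, so the counts are a description.

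Examples are given from fibre-poor members, where they were chosen after their values were seen. Uap1, which makes the UDP-N-acetylglucosamine used for hyaluronan, was at 326 CPM on the Pi16 side and 54.1 CPM on the Lum side in Ctrl, and at 529 and 97.6 CPM in cKO. Gfpt2, which acts earlier in that pathway, was at 424 and 97.4 CPM in Ctrl, and at 634 and 244 CPM in cKO. Cmah, which hydroxylates sialic acid, was at 177 and 10.8 CPM in Ctrl, and at 307 and 48.8 CPM in cKO. Creb5, a transcription factor gene, was at 988 and 206 CPM in Ctrl, and at 1184 and 244 CPM in cKO. The adhesion receptor gene Adgrd1, Ppp2r2b, Sdk1 and Tmeff2 were likewise higher on the Pi16 side in both libraries.

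On the Lum side stood Lsamp, a GPI-anchored adhesion gene, with 822 CPM on the Lum side and 410 CPM on the Pi16 side in fibre-poor Ctrl members, and at 1756 and 465 CPM in cKO. Slc24a3, an ion exchanger gene, was at 335 and 65.2 CPM in Ctrl, and at 390 and 95.2 CPM in cKO. Spon1, a secreted matrix protein gene, was at 768 and 368 CPM in Ctrl, and at 195 and 84.6 CPM in cKO, where the Lum side gave 4 UMIs. Nlgn2, Pls3 and Ptges were higher on the Lum side in both libraries as well, with 2 to 5 UMIs each on the Lum side of cKO. The fibre-poor Lum side of cKO held only 15 nuclei and 20497 UMIs, which limits every such value.

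The genes of the Pi16 panel were also compared between the libraries, although Pi16 is itself a rule gene. In fibre-poor members the panel summed to 3312 CPM in Ctrl against 5402 in cKO, a ratio of 1.63 (1.48 to 1.79), and the log2 ratio of all 7 genes with enough UMIs was above 0, with a median of 0.87. Sema3c, a secreted semaphorin gene, was at 387 CPM (323 to 459) in Ctrl and 811 CPM (664 to 981) in cKO. Cd55, which protects cells from complement, was at 109 CPM (76.9 to 151) and 260 CPM (180 to 364). In fibre-poor members these were the 2 of 7 panel genes that were at least 2-fold higher with an interval that excluded 1, where 2.79% of all genes were. Over all members, where 4.28% of all genes were higher, other genes of the panel passed. They were the rule gene Pi16, Dpp4 and Pcsk6, with ratios of 2.28, 2.23 and 2.60, while Sema3c and Cd55 had ratios of 1.86 and 1.47.

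Other genes of the panel differed by less in fibre-poor members. Pcsk6, a proprotein convertase gene, had 99 and 76 UMIs and a ratio of 1.99 (1.46 to 2.71). Dpp4, a surface peptidase gene, stood at 130 CPM in Ctrl against 237 in cKO, a ratio of 1.83 (1.11 to 2.96). Pi16 itself was at 165 and 245 CPM, a ratio of 1.48 (0.928 to 2.33) whose interval held 1. Fbn1, the fibrillin of microfibrils, was at 2111 CPM (1959 to 2271) and 3091 CPM (2797 to 3408), a ratio of 1.46 (1.29 to 1.66). The Lum panel, which holds the rule gene Lum, summed to 1293 CPM in Ctrl against 1002 in cKO, a ratio of 0.775 (0.633 to 0.944), with a median log2 ratio of −0.53. Without the matrix-high nuclei described further on its ratio was 0.637 (0.518 to 0.779) and that of the Pi16 panel 1.46 (1.32 to 1.62). Of 7 Lum panel genes 3 were then lower, against 4.3% of all genes, and none higher. Over all members the Lum panel summed to 567 CPM in Ctrl against 635 in cKO, a ratio of 1.12 (0.952 to 1.31), so its direction depended on the members counted. Cxcl14, a chemokine gene of this panel, had 24 UMIs in Ctrl and 0 in cKO, which puts it at least 3.09-fold lower when 3 UMIs are set in place of 0.

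**Figure D4:**
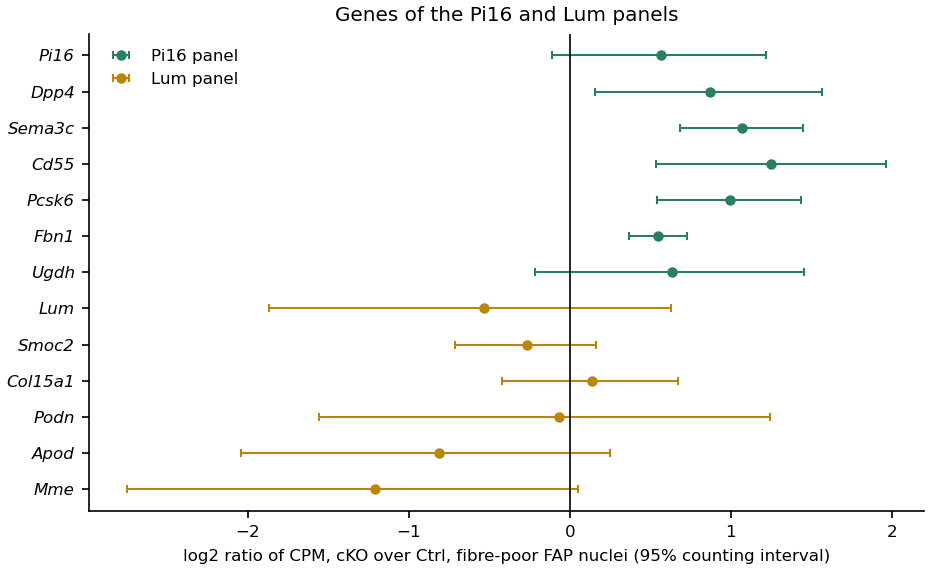
Log2 ratio of CPM, cKO over Ctrl, in fibre-poor FAP nuclei for panel genes with at least 20 UMIs and a UMI in both libraries (x axis), with exact conditional 95% intervals. All 7 genes of the Pi16 panel lie to the right of 0, while 5 of the 6 genes shown of the Lum panel lie to its left with intervals that hold 0.

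Across all genes, the libraries were compared by the ratio of CPM, and a gene was counted when the ratio was at least 2 in either direction and its counting interval excluded 1. Genes needed 20 UMIs over both libraries. Among all members, 322 of 7522 genes (4.28%) were higher in cKO and 306 (4.07%) lower. Among fibre-poor members, 116 of 4160 genes (2.79%) were higher and 214 (5.14%) lower. The median log2 ratio over all genes was 0.01 in all members and −0.02 in fibre-poor members. Of the counted genes, 67 were higher in both sets, 20.8% of those from all members and 57.8% of those from fibre-poor members. Of the lower genes, 88 were shared, 28.8% and 41.1%.

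Muscle genes were read in both sets. The slow myosin gene Myh7 stood at 20.5 CPM in Ctrl against 265 in cKO over all members, and at 26.7 and 414 CPM in the nuclei outside the set. In fibre-poor members Myh7 was at 14.8 and 115 CPM, from 5 and 15 UMIs. All 5 slow fibre genes tested were counted as higher in all members, against 4.28% of all genes, and 1 of 2 tested in fibre-poor members, against 2.79%. The other, Atp2a2, a calcium pump gene, had a ratio of 1.30 (0.768 to 2.13) in fibre-poor members, while outside the set it stood at 66.0 CPM in Ctrl against 657 in cKO. Of the fast fibre genes, 2 of 12 were lower in all members (Atp2a1 and Mylk4), against 4.07% of all genes, with a ratio of the sums of 0.686 (0.671 to 0.701). In fibre-poor members 3 of 11 were lower (Myh4, Atp2a1 and Mylk4), against 5.14%, with a ratio of 0.745 (0.675 to 0.821).

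Some of the genes that were lower in cKO in fibre-poor members follow, all of them chosen for that difference. Edil3 (ENSMUSG00000034488, chromosome 13, 88821472 to 89323223, plus strand, GRCm38), which encodes a secreted integrin ligand, had 399 UMIs in Ctrl and 6 in cKO. Its level was 1178 CPM (1065 to 1299) in Ctrl and 45.9 CPM (16.8 to 99.9) in cKO, a log2 ratio of −4.68 (−6.14 to −3.55). Adam12, a metalloprotease gene of activated mesenchymal cells, was at 871 CPM (774 to 976) and 107 CPM (58.6 to 180). Fn1, fibronectin, was at 897 CPM (799 to 1004) and 145 CPM (87.5 to 227). Postn, periostin, had 108 UMIs in Ctrl and 3 in cKO, a ratio of 0.072 (0.0146 to 0.216).

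Further genes low in cKO were of other kinds. Kctd8 had 70 UMIs in Ctrl against 0 in cKO, at least 9.002-fold lower against 3 UMIs, while Brinp3 had 107 and 1. Runx1, a transcription factor gene, had 95 and 2 UMIs, and Pcdh15 had 151 and 4. Glis3, also a transcription factor gene, was at 717 CPM (630 to 813) and 130 CPM (75.8 to 208). The number of nuclei behind these UMIs in Ctrl varied by gene. Of 211 fibre-poor members, 68 had a UMI of Glis3, 62 of Adam12, 56 of Fn1, 33 of Edil3, 27 of Postn, 15 of Brinp3 and 9 of Kctd8.

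The nuclei that held these transcripts were counted with a second rule, at least 4 UMIs from at least 2 of Edil3, Brinp3, Kctd8, Postn, Adam12 and Fn1. These 6 genes were chosen because they differed between the libraries, so the difference in the count is a description. The nuclei are called matrix-high after Postn and Fn1, while Brinp3 and Kctd8 are not matrix genes. The name does not hold for matrix genes at large, since Lama2, Tnxb, Eln, Dcn and Fbn1 were lower in these nuclei, as given further on. Such matrix-high nuclei were 66 of 412 members in Ctrl, or 16.0% (12.6 to 19.9), and 3 of 138 in cKO, or 2.17% (0.451 to 6.22). Among fibre-poor members they were 35 of 211, or 16.6% (11.8 to 22.3), and 1 of 88, or 1.14% (0.0288 to 6.17). Outside the FAP set only 7 Ctrl nuclei and 1 cKO nucleus met the second rule. The matrix-high members had medians of 3195 UMIs in Ctrl and 3651 in cKO, and 11 and 1 of them were among the nuclei with the highest doublet scores. Over the 6 genes, those of Ctrl had a median of 13 UMIs and a highest count of 326. The 10 Ctrl members richest in a gene held from 45.4% (Adam12) to 92.0% (Kctd8) of its UMIs, so sums over the matrix-high nuclei can rest on few of them.

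Within the Ctrl library, the matrix-high nuclei were compared with the other fibre-poor members on genes that the second rule did not use. Some collagen genes were higher in them, of which Col1a1, Col1a2 and Col3a1 are rule genes. Col1a1 was at 1041 CPM in the 35 nuclei and 147 CPM in the others, a ratio of 7.10 (4.80 to 10.7). Col1a2 was at 3443 and 569 CPM, Col3a1 at 4704 and 1348 CPM, and Col12a1 at 480 and 50.2 CPM. Col5a1 had a ratio of 1.44 (0.981 to 2.10) and Col14a1 one of 1.01 (0.585 to 1.69), whereas Col6a6 had 0 UMIs in them and 44 in the others. Fbn2, a fibrillin of developing tissue, had 47 UMIs in them and 0 in the others, at least 37.5-fold higher against 3 UMIs. Lox, the enzyme that cross-links collagen, had 11 UMIs and 0.

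Of the tenocyte list, Thbs4, Mkx and Tnmd were higher in these nuclei, and Thbs4 and Mkx were chosen here for their high ratios. Values of Fmod and Kera, also on the list, are not given, nor is the share of all genes that were higher in this comparison. Thbs4, a thrombospondin gene, was at 1051 and 46.1 CPM, and the tendon transcription factor gene Mkx at 380 and 20.9 CPM. Tnmd, the tendon membrane protein tenomodulin, had 11 UMIs in 7 of the 35 nuclei and 0 in the others, whereas Scx, the defining tendon factor, had 0 UMIs in both. Whether tenocytes are among these nuclei was not tested. Runx1 was at 791 and 67.0 CPM, and Acta2, the actin of myofibroblasts, had 0 and 2 UMIs. Pdgfra did not set them apart, with 430 CPM and 465 CPM and a ratio of 0.926 (0.636 to 1.33).

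Other genes, matrix genes and rule genes among them, were lower in the matrix-high nuclei. Abca8a was at 470 CPM in them and 2257 CPM in the other fibre-poor members of Ctrl, a ratio of 0.208 (0.151 to 0.281). Bmper, a secreted BMP modulator gene, was at 230 and 1432 CPM, and Tnxb, a matrix tenascin gene, at 110 and 565 CPM. Lama2, the laminin chain of the muscle basement membrane, was at 991 and 3266 CPM. Eln, elastin, had 1 UMI in them and 64 in the others, a ratio of 0.0374 (0.000931 to 0.216). Dcn had a ratio of 0.575 (0.435 to 0.750) and Fbn1 one of 0.640 (0.531 to 0.767). The matrix-high nuclei are given no cell type name, since the genes that led to them were picked after their values had been seen.

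Promoter sequences are shown for 3 matrix genes that were high together in these nuclei and for 2 genes of the Pi16 panel, from RefSeq windows of GRCm38.p6 that run from 250 bases before to 50 bases after the annotated start. Capitals mark the letters CCAAT, or ATTGG on the other strand, to which the factor NF-Y binds. Col1a2 lies at chr6:4505368-4505667 on the plus strand, Col3a1 at chr1:45311288-45311587 on the plus strand and Postn at chr3:54360857-54361156 on the plus strand. Pi16 lies at chr17:29318632-29318931 on the plus strand and Dpp4 at chr2:62412182-62412481 on the minus strand.
Col1a2: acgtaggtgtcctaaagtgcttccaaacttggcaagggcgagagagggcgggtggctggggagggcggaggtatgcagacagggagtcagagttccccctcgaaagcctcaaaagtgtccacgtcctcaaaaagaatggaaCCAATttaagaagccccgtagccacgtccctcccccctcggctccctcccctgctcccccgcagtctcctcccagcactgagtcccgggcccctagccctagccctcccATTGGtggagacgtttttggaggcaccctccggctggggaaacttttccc
Col3a1: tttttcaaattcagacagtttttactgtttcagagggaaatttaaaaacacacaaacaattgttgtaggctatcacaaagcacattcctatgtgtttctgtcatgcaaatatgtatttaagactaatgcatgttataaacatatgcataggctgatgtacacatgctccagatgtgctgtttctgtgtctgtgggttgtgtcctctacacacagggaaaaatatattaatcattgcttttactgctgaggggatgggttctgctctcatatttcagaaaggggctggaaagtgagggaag
Postn: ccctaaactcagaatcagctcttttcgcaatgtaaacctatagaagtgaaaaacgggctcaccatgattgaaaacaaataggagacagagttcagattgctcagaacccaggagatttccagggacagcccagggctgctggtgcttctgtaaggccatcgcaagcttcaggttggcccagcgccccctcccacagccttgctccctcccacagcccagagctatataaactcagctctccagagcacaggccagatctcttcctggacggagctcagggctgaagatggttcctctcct
Pi16: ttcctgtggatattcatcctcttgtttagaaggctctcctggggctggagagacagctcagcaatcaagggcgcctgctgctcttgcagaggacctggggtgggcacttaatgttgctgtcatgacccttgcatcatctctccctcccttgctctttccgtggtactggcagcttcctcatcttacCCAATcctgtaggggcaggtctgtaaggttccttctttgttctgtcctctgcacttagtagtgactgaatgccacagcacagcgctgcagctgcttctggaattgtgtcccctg
Dpp4: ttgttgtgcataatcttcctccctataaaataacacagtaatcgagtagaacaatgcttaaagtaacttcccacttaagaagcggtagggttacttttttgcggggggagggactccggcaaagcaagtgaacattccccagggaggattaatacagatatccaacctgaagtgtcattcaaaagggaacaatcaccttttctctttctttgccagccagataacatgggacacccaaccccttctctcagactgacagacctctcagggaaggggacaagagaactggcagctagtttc
CCAAT stood 2 times in the window of Col1a2, 1 time in that of Pi16 and 0 times in the others, while 37.4% of all 32851 windows hold it on either strand. TATAAA stood 1 time each in the windows of Col3a1, Postn and Dpp4, against 13.6% of all windows, and did not overlap a CCAAT. The RefSeq start used here lies 804 bases from the GENCODE start for Col1a2 and 1202 bases for Pi16. These matches describe the letters of the windows and tie no factor to the values above.

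**Figure D5:**
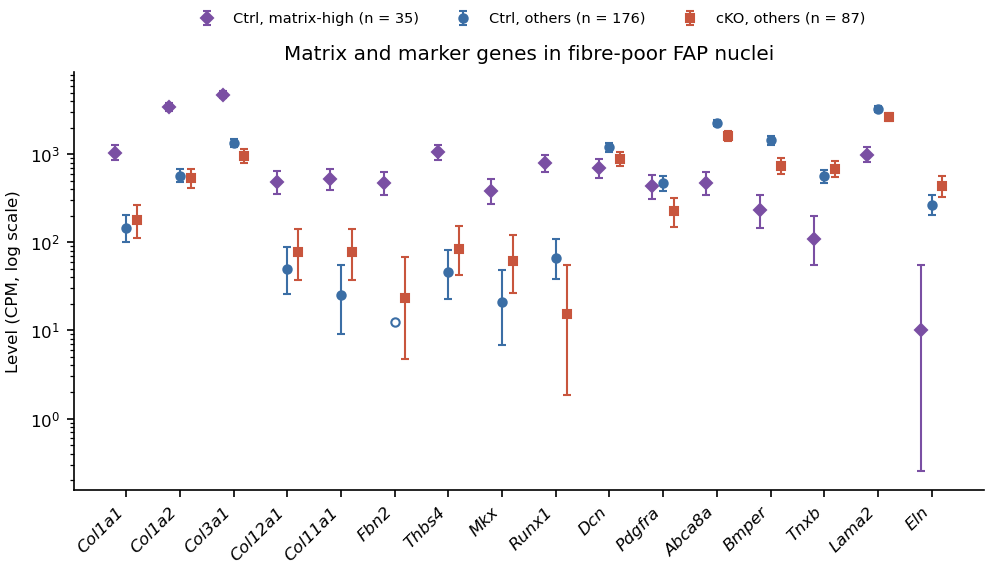
Level (y axis, CPM on a log scale) of 16 matrix and marker genes in 3 sets of fibre-poor FAP nuclei: matrix-high nuclei of Ctrl (diamonds), the other Ctrl nuclei (circles) and the other cKO nuclei (squares), with exact Poisson 95% intervals. An open marker stands at the level of 3 UMIs for a gene with 0 UMIs. The collagens shown lie below the matrix-high nuclei in the 2 other sets. Between those sets Col1a1 and Col1a2 lie near each other, Col3a1 is lower in cKO and Col11a1 higher.

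The collagens of the fibre-poor members were compared between the libraries with and without these nuclei. Of 10 fibrillar and associated collagen genes tested, 6 were lower in cKO and none higher, with a median log2 ratio of −1.10 against −0.02 for all genes, where 5.14% of genes were lower. The 6 were the rule genes Col1a1, Col1a2 and Col3a1, whose levels describe the choice of nuclei, and Col11a1, Col12a1 and Col16a1. Those rule genes also enter the median and the 10 genes tested, so neither the count nor the median is free of the choice. Over all members 3 of 11 were lower (Col11a1, Col16a1 and Col24a1), against 4.07% of all genes, and none of them was a rule gene. Col11a1 stood at 171 CPM in Ctrl against 76.5 in cKO, a ratio of 0.447 (0.204 to 0.882). Col12a1 had a ratio of 0.432 (0.197 to 0.851), and Col16a1 one of 0.236 (0.0269 to 0.959) from 22 and 2 UMIs. Of the rule genes, Col1a2 was at 1417 CPM (1293 to 1550) in Ctrl and 528 CPM (411 to 668) in cKO, and Col1a1 at 410 CPM (345 to 484) and 199 CPM (130 to 291). With the matrix-high nuclei left out, Col1a2 was at 569 and 532 CPM, Col1a1 at 147 and 177 CPM and Col3a1 at 1348 and 964 CPM. Then 0 of 8 collagen genes tested were past the fold, and the median was −0.10, while Col11a1 and Col16a1 were under 20 UMIs. The tenocyte list, lower in cKO with these nuclei, stood at 75.4 and 162 CPM without them, a ratio of 2.15 (1.09 to 4.28). That ratio rests on 18 UMIs in Ctrl and 21 in cKO, and the only gene with enough UMIs was not past the fold. Most of the 175 Ctrl UMIs of this list lay in the nuclei left out, so its turn follows from the choice of nuclei. Without these nuclei the collagens summed to 0.821 times Ctrl (0.737 to 0.913). The part of the tenocyte list in the collagen result was not tested. In that comparison 83 of 3469 genes (2.39%) were higher in cKO and 149 (4.3%) lower, and 101 of the 214 lower genes of the fibre-poor members stayed lower past the fold. Leaving these nuclei out took away 35 Ctrl nuclei and 1 cKO nucleus that were picked by genes high in Ctrl. It is circular for the 6 defining genes, and the collagens were high in the same nuclei, so the values without them are a description and no test of the collagen difference.

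The other matrix lists are read against the 2.79% of all genes that were higher and the 5.14% that were lower in fibre-poor members. Of 18 basement membrane genes, 2 were lower in cKO (Col6a3 and Lamb1) and none higher, with a median of −0.11. Lama2 stood at 2595 CPM in Ctrl against 2647 in cKO, and Lamc1, its partner chain, at 835 and 803 CPM. Lamb1 was at 165 CPM (125 to 215) and 53.6 CPM (21.5 to 110), and was lower without the matrix-high nuclei too, with a ratio of 0.300. Of 9 proteoglycan genes, 1 was lower: Gpc3, with 54 UMIs in Ctrl and 9 in cKO. Dcn was at 1051 and 888 CPM, a ratio of 0.845 (0.679 to 1.04).

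Of the elastic fibre and cross-linking lists, Eln and Loxl3 were higher in cKO. Eln (ENSMUSG00000029675, chromosome 5, 134702593 to 134747323, minus strand) was at 192 CPM (148 to 245) in fibre-poor Ctrl members and 428 CPM (324 to 556) in cKO, a ratio of 2.23 (1.53 to 3.24). It had a UMI in 10.9% of these nuclei in Ctrl and 27.3% in cKO. Without the matrix-high nuclei, which held 1 UMI of it, the ratio was 1.61 (1.11 to 2.34) and Eln was no longer past the fold. Loxl3, a lysyl oxidase gene, was at 76.7 and 176 CPM, a ratio of 2.29 (1.25 to 4.18), and 2.49 without them. Eln was not particular to FAP nuclei, since the endothelial nuclei held it at 423 CPM in Ctrl against 1304 in cKO, from 49 and 32 UMIs. Over the lists, 1 of 11 elastic fibre genes was higher and 1 lower (Fbn2), and 1 of 13 cross-linking genes was higher, with medians of 0.29 and 0.35. Among all genes in fibre-poor members 2.79% were higher and 5.14% lower. Over all members, Eln and Fbln5 of 11 elastic fibre genes were higher and Fbn2 and Ltbp3 lower, with a median of 0.88. Loxl1 and Loxl3 of 13 cross-linking genes were higher there, with a median of 0.67. Among all genes in all members 4.28% were higher and 4.07% lower.

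The list of myofibroblast and TGF-beta response genes went both ways. Of 13 genes tested in fibre-poor members, Ctgf was higher in cKO, against 2.79% of all genes, and Postn and Adam12 lower, against 5.14%, with a median of 0.08. Ctgf, a matricellular growth factor gene, was at 73.8 CPM (47.8 to 109) in Ctrl and 176 CPM (112 to 264) in cKO, from 25 and 23 UMIs. Fap, the fibroblast activation protease gene, was at 579 and 635 CPM, a ratio of 1.10 (0.839 to 1.43). Tgfbr3, a TGF-beta co-receptor gene, was at 1001 and 1125 CPM. Among 11 identity and transcription factor genes none was past the fold, and Ebf1 stood at 4490 CPM in Ctrl against 5624 in cKO.

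Growth factor and receptor genes were read next. Pdgfra (ENSMUSG00000029231, chromosome 5, 75152292 to 75198215, plus strand), a rule gene, was at 455 CPM (386 to 532) in fibre-poor Ctrl members and 222 CPM (149 to 319) in cKO, and was 0.481 times Ctrl without the matrix-high nuclei. Ghr, the growth hormone receptor gene, was at 1030 CPM (925 to 1144) and 505 CPM (391 to 642), a ratio of 0.490 (0.371 to 0.639). Without the matrix-high nuclei its ratio was 0.509 (0.381 to 0.670), just inside the fold. In nuclei outside the set Ghr stood at 1221 and 1432 CPM. Igf1, a growth factor gene that growth hormone induces, was at 446 CPM (377 to 523) and 130 CPM (75.8 to 208), but at 0.803 times Ctrl without the matrix-high nuclei. Socs2, an inhibitor of growth hormone signalling, had 54 UMIs in Ctrl against 1 in cKO, but was chosen after its values were seen.

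Counts by list were small, beside the 2.79% of all genes that were higher and the 5.14% that were lower. Of 8 PDGF and FGF genes tested in fibre-poor members, 1 was higher (Fgf7) and 1 lower (Pdgfra, a rule gene), with a median of −0.48. Fgf7, with 10 UMIs in Ctrl against 12 in cKO, was under the minimum of 20 without the matrix-high nuclei. Of 9 trophic factors, none was higher and Igf1 and Igfbp7 were lower, with a median of −0.58. Of 14 growth factor and cytokine receptors, Tek was higher and Ghr lower, with a median of −0.22, and without the matrix-high nuclei neither was past the fold, while Il1r1 was lower and the median was −0.45. Tek, the angiopoietin receptor gene, was at 171 CPM (130 to 221) and 390 CPM (291 to 513), and its ratio fell from 2.28 to 1.96 without them. The endothelial nuclei held Tek at 553 CPM in Ctrl against 285 in cKO.

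Smaller lists were also read. Of 5 BMP and WNT genes, Bmp5 was lower and none was higher, with a median of 0.17, while over all members 3 of 9 were higher (Bmp6, Fst and Dkk2), against 4.28% of all genes, and none lower. In fibre-poor members Bmp6 had a ratio of 1.41 (0.822 to 2.38) and Dkk2 one of 1.12 (0.538 to 2.22), which was 0.855 (0.407 to 1.71) without the matrix-high nuclei. Of 5 adipogenic genes, Fabp4 was lower, but its 23 UMIs in Ctrl came from 1.90% of the nuclei. Zfp423, a preadipocyte transcription factor gene, was at 171 and 230 CPM, a ratio of 1.34 (0.833 to 2.12). Of 10 matrix protease genes none was past the fold, with a median of −0.26.

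Fkbp5 and Zbtb16, which glucocorticoids induce, were lower in cKO in FAP nuclei as in the other nuclei. Fkbp5, a co-chaperone gene of the glucocorticoid receptor, was at 1110 CPM (1001 to 1228) in fibre-poor Ctrl members and 428 CPM (324 to 556) in cKO, a log2 ratio of −1.37 (−1.81 to −0.97). It had a UMI in 67.8% and 33.0% of these nuclei, and was at 508 and 22.3 CPM in the nuclei outside the set. Zbtb16, a transcription factor gene, was at 2332 CPM (2172 to 2500) and 933 CPM (775 to 1115), and at 2877 and 1076 CPM outside the set. Nr3c1, the receptor gene, was at 334 and 367 CPM. Of 7 glucocorticoid response genes tested in fibre-poor members, 2 were lower, against 5.14% of all genes, and none higher, with a median of −0.57. Without the matrix-high nuclei 3 of 6 were lower, against 4.3% of all genes, with a median of −0.99. Over all members 4 of 11 were lower (Fkbp5, Zbtb16, Pdk4 and Sgk1), against 4.07%, and Dusp1 was higher, with a median of −1.06.

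Some genes higher in fibre-poor cKO members were on no list, and all 4 given here were chosen for that difference. Kirrel3 (chromosome 9, 34485894 to 35036716, plus strand), an immunoglobulin adhesion gene, was at 94.5 CPM (64.6 to 133) in Ctrl and 367 CPM (271 to 487) in cKO. All of its UMIs lay in 5 nuclei of each library. Pcdh9, a protocadherin gene, was at 269 and 650 CPM, a ratio of 2.42 (1.78 to 3.29), with UMIs in 49 and 25 nuclei. Rgs6, a regulator of G-protein signalling, was at 121 and 337 CPM, with UMIs in 22 and 19 nuclei. Srebf2, the transcription factor gene of cholesterol synthesis, had 19 UMIs in Ctrl and 23 in cKO, a ratio of 3.14 (1.63 to 6.09).

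The targeted gene had few UMIs in fibre-poor FAP nuclei. Plpp7 (ENSMUSG00000051373, chromosome 2, 32095528 to 32110820, plus strand) had 2 UMIs in fibre-poor Ctrl members and 1 in cKO, which is 5.90 CPM (0.715 to 21.3) and 7.65 CPM (0.194 to 42.6). Over all members it was at 38.0 and 19.1 CPM, beside 48.7 and 41.1 CPM in the nuclei outside the set. The kit captures the 3′ end of transcripts while the floxed exon is the first, so these UMIs do not read the deleted part.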

How the data were processed

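By the labels' protocol, nuclei of 3 pooled GP muscles per group were sorted by DAPI and measured with 10x Genomics droplets. The labels name kit version 2 and the study's methods version 3.1. The authors aligned the reads to mm10 with Cell Ranger 3.1.0 and deposited UMI counts per gene and nucleus, which are raw counts. The annotation release and the treatment of intronic reads are not given in the sources used here.

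From the counts, nuclei under 500 UMIs or over 10% mitochondrial UMIs were left out, members were found by the stated rule, and UMIs were summed per library. CPM has exact Poisson intervals, ratios exact conditional ones and shares Clopper-Pearson ones, and a gene at 0 was set to 3 UMIs for a fold. A gene with at least 20 UMIs was counted past a ratio of 2 with an interval excluding 1. Named genes were the rule genes, Plpp7, the 10 of each direction with the interval bound farthest from 1, and up to 4 members of each of 28 lists plus those past the fold. Members and lists were chosen with earlier results of these data known. The alternatives varied depth, the rule, the UMI minimum, doublet removal by Scrublet in scanpy 1.11.5 (which called 0 doublets on its own, so the top 8% of scores was used), fibre RNA and the sides. Python 3.11.15, scipy 1.17.1, pandas 2.3.3 and matplotlib 3.10.9 were used, and the method was tested on simulated data. Gene positions are from GENCODE M21 (27722 of 27998 IDs matched) and promoters from RefSeq.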

Additional observations from a re-analysis of the deposited data

How the results depend on the processing

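No paired analysis was possible because each group has 1 library and no test was made. The share of FAP nuclei was lower in cKO under every alternative run, by −2.85 points when thinned to 500 UMIs, −3.00 when thinned to 1000, −5.91 among nuclei of at least 1000 UMIs, −5.74 with 6 rule UMIs demanded, −5.96 without the highest doublet scores, −4.54 among classed nuclei from outside the fibres, and −3.25, −2.67 and −3.75 with the fibre share limited to 2%, 1% and 3%. The 322 higher genes became 152 with 50 UMIs demanded, 496 with no minimum, 521 when each nucleus weighed the same, 116, 105 and 132 under the 3 fibre limits, and 83 with both the 2% limit and the matrix-high nuclei left out. The 306 lower genes became 214 and 186 under fibre shares of 2% and 1%, 149 with both the 2% limit and the matrix-high nuclei left out, and 163 among genes at least as high in FAP as in other nuclei. When each nucleus weighed the same and only the fold was asked, with no interval, 521 genes were higher and 891 lower. Those counts thus differ from 322 and 306 in the criterion as well as in the weighting. The difference in Lum-side nuclei moved from −3.01 points to −10.4 under the 2% limit and to −11.7 (−22.0 to −0.101) with the matrix-high nuclei left out as well. It had the other sign, with intervals that held 0, when thinned to 500 UMIs (0.376 points) and among nuclei of at least 1000 UMIs (2.22 points). Of genes higher on the Lum side, 22 passed with 50 UMIs demanded, 46 with sides from Pi16 and Lum alone, 145 with a margin of 2 UMIs and 43 in fibre-poor members, where 44 passed on the Pi16 side.

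Median log2 ratios of lists moved under the fibre limits of 2%, 1% and 3% for the rule genes (−0.39, −0.32 and −0.36) and elastic fibre genes (0.29, 0.33 and 0.42), for collagens at 2% (−1.10) and for fast fibre genes at 1% (−0.98). With the 2% limit and the matrix-high nuclei left out together they moved for elastic fibre genes (0.086), basement membrane genes (−0.30) and proteases (−0.48), where the limit alone gave 0.29, −0.11 and −0.26, and with no UMI minimum for identity genes (0.69). With both changes together the log2 ratio differed in sign from that of all members for Col11a1 (1.62), Thbs4 (0.88), Pcdh15 (0.56), Dkk2 (−0.23), Fbln5 (−0.21) and Pdgfrl (−1.58), of which Pdgfrl had already done so under the limit alone. It also did for Edil3 (1.14) and Postn (0.30), which helped to define those nuclei and kept 5 and 3 UMIs in Ctrl, so these values follow from the choice of nuclei and say nothing about the genes. Under the fibre limits of 2%, 1% and 3% it changed sign for Dusp1 (−0.21, −0.39 and −0.52) and Pdgfrl (−1.43, −2.21 and −1.49), at 1% for Bmp6 (−0.043) and at 3% for Tnnc1 (−0.17). Pdgfrl also changed sign with 6 rule UMIs (−0.32), with 3 rule genes (−0.084) and without the 10% of members richest in fibre RNA (−1.30), and Pde8b with 6 rule UMIs (−0.82) and with 3 rule genes (−1.84). The fibre limits and the matrix-high nuclei were alternatives chosen after seeing the data, and the cause of these shifts was not tested. The 88 fibre-poor cKO nuclei held 130700 UMIs, so differences in genes with few UMIs were not detectable at this depth.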

Other observations

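Ion channel and receptor genes that no list held also differed between the matrix-high and the other fibre-poor nuclei of Ctrl, and were chosen after their values were seen. Kcnma1, a potassium channel gene, stood at 3944 CPM in the matrix-high nuclei and 394 CPM in the others, beside 470 CPM in the cKO nuclei without them. Piezo2, a mechanosensitive channel gene, stood at 981, 100 and 131 CPM in the same sets.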
